A study of Mus musculus with 24 samples.

Results

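The miR-29 family of the mouse lens was described from its 3 guide strands, mmu-miR-29a-3p, mmu-miR-29b-3p and mmu-miR-29c-3p (mmu marks the mouse and is left out from here on), which were picked by name from the 1908 mature miRNAs of the small-RNA tables. All 3 were present in every small-RNA library, and all 3 were higher at postnatal day 9 (P9) than at embryonic day 15 (E15). The means rose from 24.6 to 60.1 for miR-29a-3p, from 39.9 to 99.6 for miR-29c-3p and from 1.55 to 24.9 for miR-29b-3p, in units of the deposited miRNA signal. The study followed lenses of C57BL/6 mice, an inbred laboratory strain, at E15, E18, P0, P3, P6 and P9, with no treatment or mutation in any group. At each of the 6 stages there were 2 pools, A and B, each of lenses from 8 to 9 pups, which makes 12 small-RNA and 12 mRNA libraries. A pool averages over whole lenses, so epithelium and fiber cells are mixed in every library.

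MicroRNAs are short RNAs that guide Argonaute proteins to messenger RNAs, mainly through their seed, bases 2 to 8 counted from the 5′ end, and lower the stability and translation of what they bind. The miR-29 guides are known above all as repressors of extracellular matrix genes, among them many collagens, and have been studied in fibrosis of heart, liver and kidney. They are also known to target DNA methyltransferases and regulators of cell survival. The lens is wrapped in a thick basement membrane, the lens capsule, which its epithelial and fiber cells lay down from laminin, collagen IV and other matrix proteins.

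The mature sequences are shown because the members share 1 seed and differ only behind it. They are RefSeq entries for GRCm38.p6, written 5′ to 3′ with the seed in capitals.
miR-29a-3p: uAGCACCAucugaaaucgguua
miR-29b-3p: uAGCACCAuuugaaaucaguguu
miR-29c-3p: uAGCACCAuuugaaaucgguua
No other mature miRNA among the 1679 names in that RefSeq table carries this seed. With positions counted from the 5′ end, miR-29a-3p and miR-29c-3p differ by 1 substitution, C10U. From miR-29a-3p to miR-29b-3p there are 4 substitutions, C10U, G18A, U21G and A22U, and miR-29b-3p is 1 base longer. MiR-29b-3p and miR-29c-3p are identical over the first 17 bases. The sources used here do not give the number of mismatches the authors' alignment allowed, so some reads of miR-29a-3p and miR-29c-3p could stand under the other name.

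The guides come from 4 hairpins in a pair of clusters. Their RefSeq sequences are shown, with the guide in capitals, because 2 of them release the same guide.
Mir29b-2: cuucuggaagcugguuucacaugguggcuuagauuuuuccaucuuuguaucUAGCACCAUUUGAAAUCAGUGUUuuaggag
Mir29c: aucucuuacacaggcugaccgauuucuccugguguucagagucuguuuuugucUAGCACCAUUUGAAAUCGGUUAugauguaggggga
Mir29a: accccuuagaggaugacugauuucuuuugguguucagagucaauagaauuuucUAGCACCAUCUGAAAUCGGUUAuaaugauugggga
Mir29b-1: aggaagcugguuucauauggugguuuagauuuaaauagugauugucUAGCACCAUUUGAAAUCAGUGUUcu
On build GRCm38, Mir29b-2 lies at chr1:195037040-195037120 and Mir29c at chr1:195037547-195037634, both on the plus strand with 426 bases between them. Mir29a lies at chr6:31062660-31062747 and Mir29b-1 at chr6:31063023-31063093, both on the minus strand with 275 bases between them. The miR-29b guide is the same 23 bases from either cluster, so its signal cannot be assigned to a locus. The passenger strands, which come from the other arm of the hairpin, do differ between Mir29b-1 and Mir29b-2.

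The deposited miRNA values of a library summed to 764009 to 816619, and the number of reads behind them is unknown. Between 612 and 730 miRNAs per library had a value of at least 1. The median absolute log2 difference between the pools of a stage was 0.194 to 0.323 in the small-RNA libraries, apart from 0.506 at P3. In the mRNA libraries it was 0.115 to 0.153, apart from 0.350 at E15. Results that rest on P3 small-RNA or E15 mRNA pools are therefore also given without those pools where leaving them out was possible and changed a call. The mRNA libraries held the lens markers Cryaa, Crybb2, Mip, Bfsp1, Lim2 and Foxe3. Their sum was 26020 to 38760 RPKM (reads scaled to transcript length and library size) at E15 and 76930 to 79110 at P9. Of these 6 genes, 5 were called higher and 1 lower from E15 to P9, beside 8.65% and 55.4% of all tested genes. Summed markers of other cells fell over the same interval, from 40.3–60.5 to 8.47–11.0 RPKM for 5 endothelial genes, from 42.0–57.4 to 3.66–6.54 for 5 macrophage genes and from 4291–4799 to 83.4–132.8 for 4 erythroid genes. The summed level of 5 retinal genes was 40.3–154.6 RPKM (E15), 115.1–126.4 (E18), 24.3–24.9 (P0), 38.4–59.6 (P3), 28.9–48.3 (P6) and 94.0–208.7 (P9). Of these 5 genes, 3 were called higher and 1 lower from E15 to P9. None of these markers was at 0 throughout, and their part in the miRNA values was not tested. In bulk tissue, fewer cells of a type and less RNA per cell cannot be told apart.

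MiR-29c-3p was the most abundant member in every library. Its signal in pools A and B was 38.1 and 41.7 (E15), 46.2 and 38.5 (E18), 72.8 and 74.3 (P0), 65.4 and 63.4 (P3), 95.8 and 88.9 (P6), and 107.8 and 91.5 (P9). The embryonic libraries spanned 38.1 to 46.2 and the postnatal ones 63.4 to 107.8, with no overlap. In the order of stage means, E15 and E18 overlapped, as did P6 and P9, while P3, P0 and P6 were separated by their pools.

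MiR-29a-3p stood below miR-29c-3p and moved at the same time. Its signal was 23.8 and 25.4 (E15), 25.8 and 22.9 (E18), 41.4 and 53.5 (P0), 60.1 and 54.2 (P3), 57.8 and 72.7 (P6), and 65.8 and 54.4 (P9). The embryonic libraries lay within 22.9 to 25.8 and the postnatal ones within 41.4 to 72.7, again without overlap. The pools of P3, P6 and P9 overlapped, so the order of these stages is not resolved for miR-29a-3p. For scale, 26 of the 777 tested miRNAs, 3.35%, had every postnatal library above every embryonic one, and miR-29a-3p and miR-29c-3p were among them.

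MiR-29b-3p was the scarce member. Its signal was 0.75 and 2.35 (E15), 3.24 and 4.38 (E18), 13.9 and 10.2 (P0), 2.72 and 8.12 (P3), 24.1 and 35.02 (P6), and 31.0 and 18.9 (P9). The embryonic range of 0.75 to 4.38 and the postnatal range of 2.72 to 35.02 overlapped because of pool A of P3, the library in which most miRNAs (1178 of 1908) were listed at 0. At P6 and P9 every library was above every earlier one. MiR-29b-3p stood at rank 278 to 765 among the 1908 miRNAs, against rank 204 to 382 for miR-29a-3p and 173 to 324 for miR-29c-3p.

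**Figure D1:**
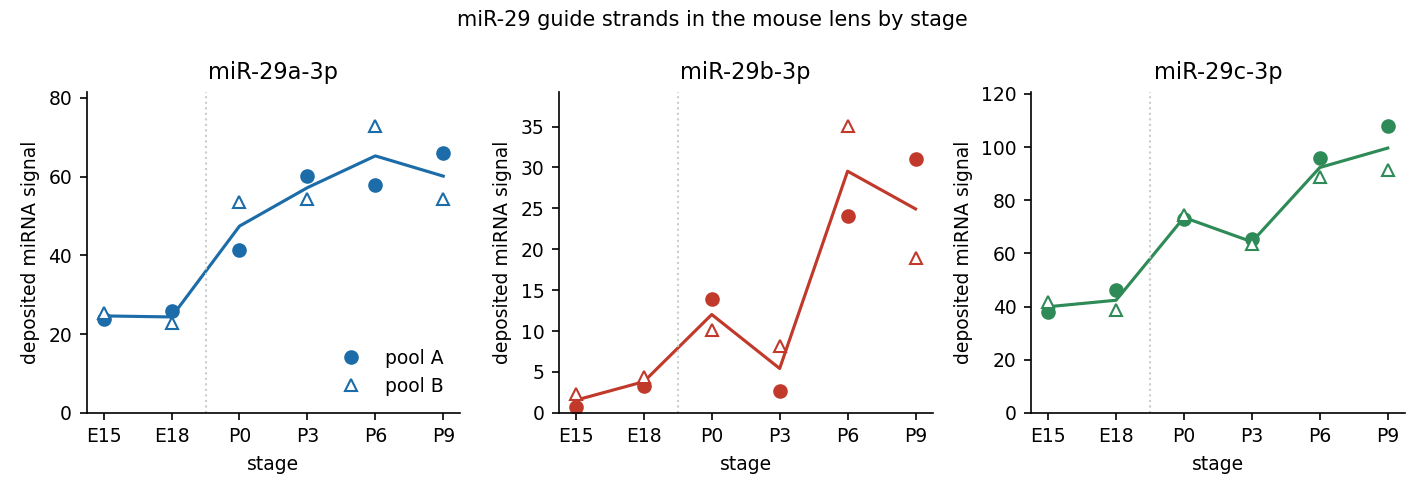
Deposited miRNA signal (y axis, linear from 0, a separate scale per panel) of miR-29a-3p, miR-29b-3p and miR-29c-3p against stage; circles are pool A, open triangles pool B, lines the mean of the 2 pools, and the dotted line divides embryonic from postnatal stages. MiR-29a-3p and miR-29c-3p rise at P0 and no postnatal pool falls back to the embryonic range, while miR-29b-3p dips at P3 to 2.72 and 8.12.

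All 3 members changed over the 6 stages, with adjusted p of 0.000248 for miR-29a-3p, 7.67e-05 for miR-29b-3p and 0.000239 for miR-29c-3p in limma's joint test on log2(signal + 1), adjusted over 777 miRNAs. The same test called 64.6% of all tested miRNAs. From E15 to P9, miR-29a-3p rose by 1.25 ± 0.23 on that log2 scale (± SE, 2 pools per stage, limma adjusted p = 0.000394). MiR-29c-3p rose by 1.29 ± 0.20 (limma adjusted p = 9.24e-05). MiR-29b-3p rose by 3.38 ± 0.45 (limma adjusted p = 3.35e-05). The plain ratio of the stage means, without the added 1, was 16.1-fold for miR-29b-3p, 2.44-fold for miR-29a-3p and 2.495-fold for miR-29c-3p. The ratio of miR-29b-3p rests on a low E15 mean of 1.55, from pools of 0.75 and 2.35. Rises were the less common direction: 12% of tested miRNAs were called higher at P9 and 49.3% lower, and the median of all tested miRNAs was -0.80.

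The postnatal stages together were above the embryonic stages by 1.18 ± 0.14 for miR-29a-3p, 2.18 ± 0.28 for miR-29b-3p and 0.97 ± 0.12 for miR-29c-3p, again on the log2(signal + 1) scale. The limma adjusted p was 1.19e-05, 2.06e-05 and 1.85e-05, and 12.6% of tested miRNAs were called higher in this comparison. Because the steps that scaled the deposited signal are unnamed, both comparisons were repeated after each library was rescaled by its median ratio to the other libraries. The rise to P9 was then 2.13 for miR-29a-3p, 4.06 for miR-29b-3p and 2.19 for miR-29c-3p. On that scale the median of all miRNAs was -0.10, with 193 called higher and 208 lower, in place of 93 and 383.

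The first step up fell between E18 and P0. MiR-29a-3p rose by 0.93 ± 0.23, miR-29b-3p by 1.43 ± 0.45 and miR-29c-3p by 0.79 ± 0.20 on the log2(signal + 1) scale, with limma adjusted p of 0.0177, 0.0445 and 0.0185. Of all tested miRNAs, 7.59% were called higher in this interval. By stage means these steps were 1.95-fold, 3.16-fold and 1.74-fold. Each of these calls was lost without pool B of E18 or without either pool of P0, and those of miR-29a-3p and miR-29b-3p also without pool A of E18, with limma adjusted p up to 0.256. The call of miR-29b-3p, kept in 10 of 19 alternatives, was also lost with a pseudocount of 0.1, with no filter on low values, with no intensity trend and without either pool of P6. Before birth, from E15 to E18, the change was -0.02 for miR-29a-3p and 0.08 for miR-29c-3p. For miR-29b-3p it was 0.98 ± 0.45, which did not pass the test (limma adjusted p = 0.183).

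A second step was seen for miR-29b-3p between P3 and P6, where it rose by 2.37 ± 0.45 on the same scale (limma adjusted p = 0.00235). In this interval 12.2% of tested miRNAs were called higher. MiR-29c-3p differed by 0.51 ± 0.20 (limma adjusted p = 0.0728) and miR-29a-3p by 0.18 ± 0.23 (limma adjusted p = 0.593), so neither passed the test. MiR-29c-3p did pass after median-ratio rescaling and quantile normalization (0.57 and 0.62, limma adjusted p = 0.0356 and 0.0207). The P3 level of miR-29b-3p stood 1.15 below that of P0, a difference that did not pass either (limma adjusted p = 0.0885) but did when pool B of P3 was left out (-1.79, adjusted p = 0.00777). Between P6 and P9 the members differed by -0.11, -0.25 and 0.10 for miR-29a-3p, miR-29b-3p and miR-29c-3p, all with limma adjusted p of 0.912 to 0.919.

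Added up, the guides of the shared seed gave a signal of 66.1 ± 4.87 (E15; mean ± SD, n = 2 pools), 70.5 ± 6.71 (E18), 133.0 ± 7.0 (P0), 127.0 ± 1.75 (P3), 187.1 ± 13.5 (P6) and 184.7 ± 28.2 (P9). The sum was 2.80-fold higher at P9 than at E15, and its mean moved mainly at P0 and at P6. MiR-29c-3p made up 60.4% of it at E15 and 54.1% at P9, and miR-29a-3p 37.3% and 32.6%. The share of miR-29b-3p was 2.29% (E15), 5.48% (E18), 9.10% (P0), 4.29% (P3), 15.7% (P6) and 13.3% (P9). The family sum was thus mostly miR-29c-3p and miR-29a-3p at every stage.

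**Figure D2:**
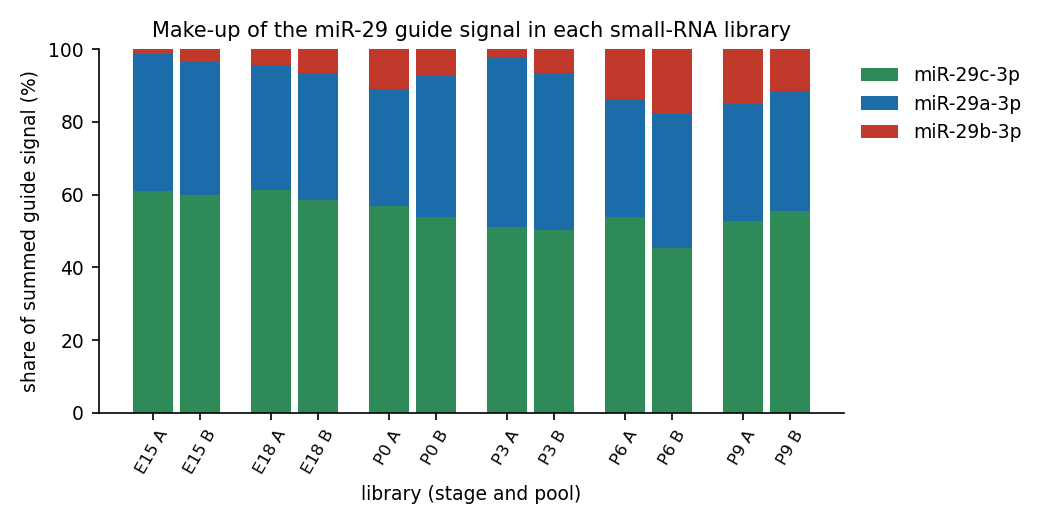
Share of the summed miR-29 guide signal (y axis, %) held by miR-29c-3p, miR-29a-3p and miR-29b-3p in each of the 12 small-RNA libraries, 2 pools per stage; each bar adds to 100%. The miR-29b-3p segment is largest in the P6 and P9 libraries and small at E15 and in pool A of P3.

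Ratios between members do not depend on the scale of a library. They were compared between the 8 postnatal and 4 embryonic libraries with exact two-sided permutation tests. The 495 arrangements allow a p as small as 0.00202. The 2 pools of a stage were shuffled as separate libraries, so these p ignore differences between the stages of a group and can be too small. The mean log2 ratio of miR-29b-3p to miR-29c-3p was -4.20 ± 1.07 (SD) in embryonic and -2.53 ± 0.99 in postnatal libraries, a difference of 1.67 (exact permutation p = 0.0242, adjusted over 3 pairs 0.0727). For miR-29b-3p to miR-29a-3p the means were -3.45 ± 1.11 and -2.01 ± 1.16, a difference of 1.44 (exact permutation p = 0.0626, adjusted 0.0939). For miR-29c-3p to miR-29a-3p they were 0.75 ± 0.07 and 0.51 ± 0.27, a difference of -0.23 (exact permutation p = 0.146, adjusted 0.146). None of the 3 pairs passed after adjustment, so a larger rise of miR-29b-3p than of its relatives was not established over all libraries. Without both P3 libraries the first 2 differences were 2.09 and 1.97, each with an adjusted exact permutation p of 0.0143. Leaving out pool A of P3 alone gave 1.96 and 1.79, with adjusted exact permutation p of 0.00909 and 0.0136.

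The passenger strands gave a second reading of the loci. They are shown with bases 2 to 8 in capitals, which differ from the guide seed.
miR-29c-5p: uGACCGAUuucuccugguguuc
miR-29b-2-5p: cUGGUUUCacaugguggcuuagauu
miR-29a-5p: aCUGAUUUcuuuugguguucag
miR-29b-1-5p: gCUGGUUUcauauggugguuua
Of these, only miR-29c-5p had an appreciable signal, 5.02 and 5.01 in pools A and B (E15), 6.85 and 4.94 (E18), 13.0 and 14.5 (P0), 7.23 and 6.02 (P3), 22.6 and 25.1 (P6), and 23.4 and 20.3 (P9). It rose by 1.92 ± 0.27 from E15 to P9 on the log2(signal + 1) scale (limma adjusted p = 5.16e-05), a 4.36-fold difference of the means. Like miR-29b-3p it was lower at P3 than at the stages on either side, by 0.95 ± 0.27 against P0 (limma adjusted p = 0.0271, where 17% of tested miRNAs were called lower). That fall was lost on both rescalings and without either P0 library.

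The 5p arm held 11.2% of the signal of both miR-29c arms at E15, 12.1% (E18), 15.7% (P0), 9.32% (P3), 20.5% (P6) and 18.0% (P9). MiR-29b-2-5p, from the same cluster as miR-29c, lay between 0 and 2.17 and did not pass the test from E15 to P9 (0.47 ± 0.43, limma adjusted p = 0.361). Its change was 0.93 after median-ratio rescaling, which did not pass (limma adjusted p = 0.0940). After quantile normalization it was 1.21 and passed (limma adjusted p = 0.0257). MiR-29a-5p and miR-29b-1-5p, the passengers of the chromosome 6 cluster, never exceeded 1.07 and 0.29 and were too low to be tested.

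The mRNA tables list A330023F24Rik, a noncoding transcript at chr1:194976375-195037904 on the plus strand that spans both Mir29b-2 and Mir29c. It was looked up for its position after the miRNA values were known. Its level was 0.237 and 0.159 RPKM in pools A and B (E15), 0.359 in both (E18), 0.364 and 0.480 (P0), 0.561 and 0.809 (P3), 1.02 and 1.54 (P6), and 1.45 and 1.18 (P9). Every postnatal library was above every embryonic one, as for 5.09% of tested genes. The transcript reached 1 RPKM only at P6 and P9, so it passed the filter on low values through the stages where it was highest. The test that follows is therefore a description and no independent evidence. The rise from E15 to P9 was 0.95 ± 0.17 on the log2(RPKM + 1) scale (limma adjusted p = 0.00093), where 8.65% of 14405 tested genes were called higher and 55.4% lower. Unlike miR-29b-3p and miR-29c-5p, its stage means did not fall at P3.

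The gene Cd46 overlaps the end of this transcript on the opposite strand, at chr1:195036826-195092249, and the library kit does not mark strand, so reads from the overlap cannot be told apart. Cd46 itself lay between 0.137 and 1.28 RPKM and its change from E15 to P9 did not pass the test. The hairpin rows of the mRNA tables were of little use: Mir29a and Mir29b-1 were listed at 0 in all 12 libraries, and Mir29b-2 did not pass the test. Mir29c, read at 0.437 and 0 RPKM at E15 and 3.298 and 2.785 at P9, rose by 1.75 ± 0.46 on the log2(RPKM + 1) scale (limma adjusted p = 0.00747). In between it read 0.707 and 2.068 (E18), 0.489 and 0.393 (P0), 0 and 2.274 (P3), and 3.546 and 3.013 (P6). Its difference between postnatal and embryonic stages, 0.64 ± 0.28, did not pass (limma adjusted p = 0.0575).

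**Figure D3:**
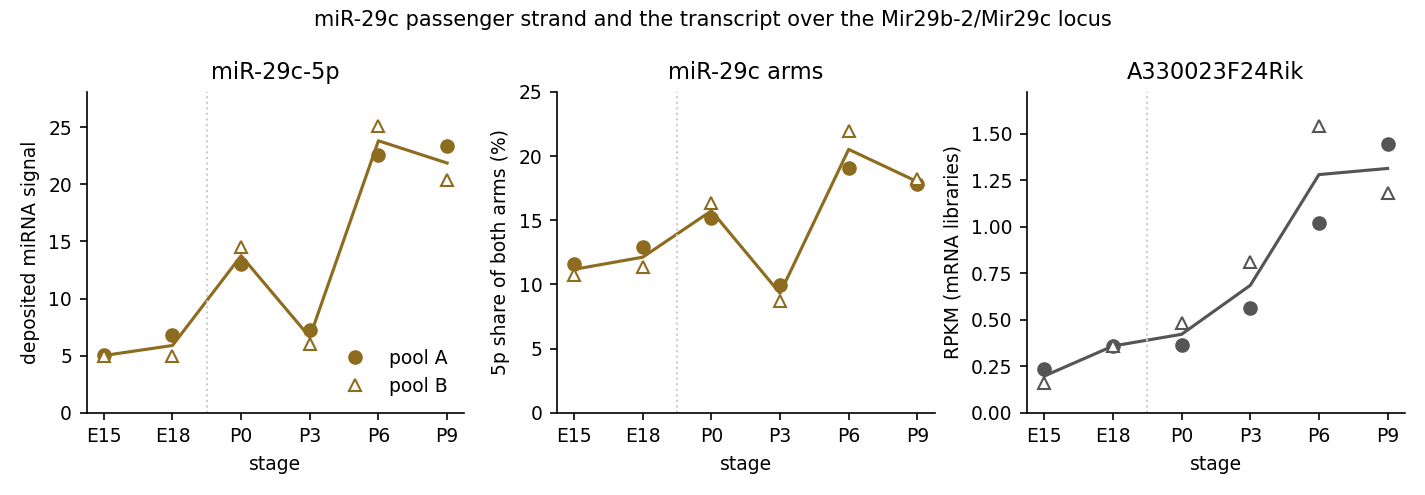
Signal of the passenger miR-29c-5p (left), its share of the signal of both miR-29c arms in % (middle) and RPKM of A330023F24Rik in the mRNA libraries (right) against stage; circles are pool A, open triangles pool B and lines the mean of the 2 pools. The passenger and its share dip at P3, to 9.32% of both arms, whereas the transcript over the locus is higher at P3 than at P0 in both pools.

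The miRNAs whose pattern was most like each member were found by Pearson's r of log2(signal + 1) over the 12 small-RNA libraries. These r are descriptions of libraries that share stages and scaling. For miR-29c-3p the nearest were miR-574-5p (r = 0.972), miR-125b-2-3p (0.968), miR-574-3p (0.962), miR-338-3p (0.960) and miR-3065-5p (0.949). For miR-29a-3p they were miR-375-3p (0.941), miR-6516-5p (0.924), miR-125b-2-3p (0.916), miR-3065-5p (0.906) and miR-574-5p (0.902), so 3 names occur in both lists. The nearest to miR-29b-3p were other miRNAs, miR-1251-5p (0.977), miR-190a-5p (0.973), miR-27a-3p (0.972), miR-32-5p (0.969) and miR-34b-5p (0.965). Between members r was 0.921 for miR-29a-3p with miR-29c-3p, 0.905 for miR-29b-3p with miR-29c-3p and 0.777 for miR-29a-3p with miR-29b-3p.

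The mRNA libraries allow the reported targets of the family to be read at the same stages. A target site is matched here by TGGTGCT, which pairs with the seed, or by TGGTGCTA, the same with an added A opposite the first base of the miRNA. The longest annotated 3′ UTR (untranslated region) of each gene was searched on its transcribed strand. Of 20957 genes with an annotated 3′ UTR, 13.1% held TGGTGCT and 2.85% held TGGTGCTA. The lists of reported or predicted targets held TGGTGCT in 21 of 24 matrix genes, 6 of 7 DNA methylation genes and 25 of 26 genes of cell survival, cell cycle and signalling. The listed genes without a match in the UTR searched were Col1a2, Sparc, Serpinh1, Dnmt1 and Grn. These lists were drawn up partly from such predictions and their UTRs are longer than most, so the shares are no result.

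The matrix list split in both directions between E15 and P9: of 20 tested members, 6 rose, 8 fell and the remaining 6 failed the test, where 8.65% of all tested genes were called higher and 55.4% lower. Its median log2 change was 0.14, beside -0.54 over all 14405 tested genes. The genes that rose were Sparc, which encodes a collagen-binding glycoprotein, and 5 of the 6 chains of collagen IV, the network-forming collagen of basement membranes. The genes that fell were the collagens Col1a1, Col1a2, Col3a1, Col5a1, Col5a2 and Col15a1, the collagen chaperone Serpinh1 and the matrix protease Mmp2. After median-ratio rescaling 10 rose and 7 fell. Lox, Loxl4, Col5a3 and Col7a1 were too low to be tested.

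Sites of the collagen IV chains are shown because 5 of these 6 genes rose over the interval in which the miR-29 guides rose. Each is 30 bases of the 3′ UTR on GRCm38, 5′ to 3′, with the match in capitals.
Col4a1, chr8:11199761-11199790, minus strand: cgcctctgccaccgtcacaacaTGGTGCTA
Col4a2, chr8:11448336-11448365, plus strand: gcagctgtgtgggaaggccacgtTGGTGCT
Col4a3, chr1:82720613-82720642, plus strand: ttgacccacggaagtggacgtgaTGGTGCT
Col4a4, chr1:82453036-82453065, minus strand: ctcaactattccagcaaattcagTGGTGCT
Col4a5, chrX:141688231-141688260, plus strand: cctttaccactgctcccaccaaTGGTGCTA
Col4a6, chrX:141166514-141166543, minus strand: tgctttcctgtttccatccatcTGGTGCTA
Each chain held at least 1 match, with 4 in Col4a3, 3 in Col4a5, 2 each in Col4a2 and Col4a4 and 1 each in Col4a1 and Col4a6. A match is a run of letters and does not show that the site is used.

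Col4a1 and Col4a2, whose products join in the collagen IV network found in nearly all basement membranes, were the abundant chains. Col4a1 read 201.6 and 289.6 RPKM in pools A and B (E15), 185.5 and 197.9 (E18), 454.6 and 471.4 (P0), 509.8 and 452.7 (P3), 609.8 and 600.3 (P6), and 685.2 and 654.8 (P9). It rose by 1.47 ± 0.15 from E15 to P9 on the log2(RPKM + 1) scale (limma adjusted p = 2.67e-05). Col4a2 read 131.7 and 189.5 RPKM at E15 and 539.4 and 534.8 at P9 and rose by 1.76 ± 0.15 (limma adjusted p = 1.06e-05). For both genes all 8 postnatal libraries were above all 4 embryonic ones, as for 5.09% of tested genes. The step fell between E18 and P0, as for miR-29a-3p and miR-29c-3p.

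Col4a3 and Col4a4, chains best known from the mature glomerular basement membrane of the kidney, were nearly absent at E15 and climbed at each stage. Col4a3 read 0.223 and 0.313 RPKM (E15), 0.885 and 0.817 (E18), 6.53 and 7.32 (P0), 22.5 and 22.4 (P3), 40.6 and 37.8 (P6), and 59.9 and 54.0 (P9). Its rise was 5.51 ± 0.12 on the log2(RPKM + 1) scale (limma adjusted p = 9.38e-10). Col4a4, which lies next to Col4a3 on chromosome 1 on the opposite strand, read 0.143 and 0.058 RPKM at E15 and 49.2 and 45.7 at P9, a rise of 5.46 ± 0.11 with the same adjusted p. No pools of consecutive stages overlapped for either gene. The last step, from P6 to P9, was 0.53 for Col4a3 and 0.34 for Col4a4 and did not pass (limma adjusted p = 0.240 and 0.679).

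Col4a5 and Col4a6, an X-linked neighbour pair, changed least. Col4a6 went from 26.3 and 40.8 RPKM at E15 to 55.5 and 52.6 at P9, a rise of 0.71 ± 0.16 on the log2(RPKM + 1) scale (limma adjusted p = 0.00354), which was 0.40 without pool A of E15 and 1.36 after median-ratio rescaling. Col4a5, with its 3 TGGTGCTA matches, read 61.5 and 87.7 RPKM (E15), 58.8 and 55.4 (E18), 97.8 in both pools (P0), and 96.7 and 85.0 (P9). Its difference from E15 to P9 was 0.30 ± 0.14 and did not pass (limma adjusted p = 0.0878), but it passed without pool B of E15 (0.55) and on both rescalings (0.96 and 0.75), and it was 0.05 without pool A of E15. Over all postnatal against all embryonic stages Col4a5 was higher by 0.53 (limma adjusted p = 0.000304, where 10.2% of genes were called higher and 67.4% lower).

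**Figure D4:**
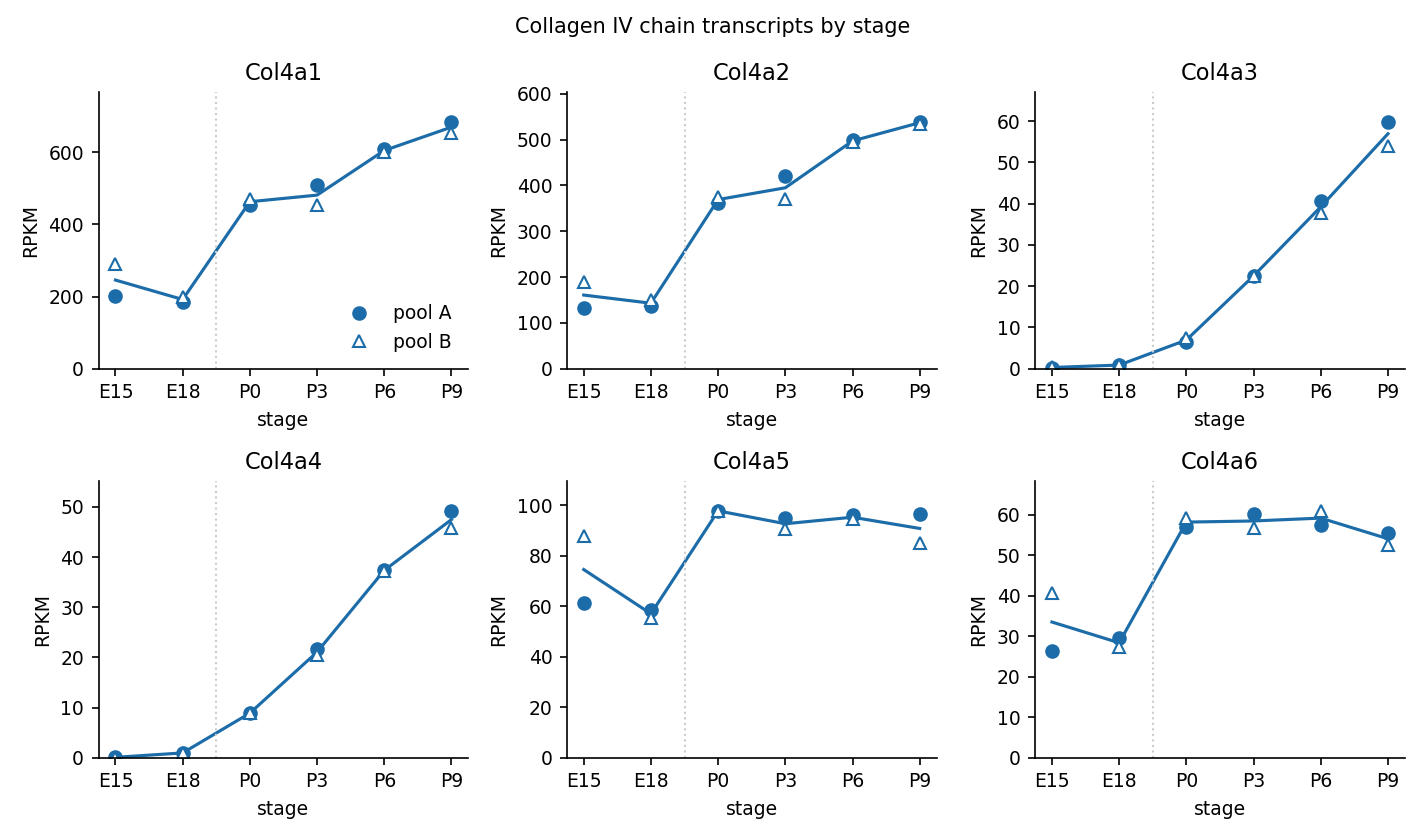
RPKM (y axis, linear from 0, a separate scale per panel) of the 6 collagen IV chain genes against stage in the mRNA libraries; circles are pool A, open triangles pool B and lines the mean of the 2 pools. Col4a1 and Col4a2 step up at P0, Col4a3 and Col4a4 climb from below 0.4 RPKM at E15 to 45.7–59.9 at P9, and Col4a5 and Col4a6 stay within 85.0–97.8 and 52.6–61.0 from P0 on.

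Among the matrix genes that fell, Col1a1, a chain of the fibrillar collagen I, read 6.90 and 5.36 RPKM (E15), 0.927 and 2.48 (E18), 0.284 and 0.251 (P0), 3.69 and 0.707 (P3), 0.423 and 0.298 (P6), and 0.541 and 0.292 (P9). The E15 pools were the highest, and pool A of P3 lay above both E18 pools. Col1a1 fell by 2.33 ± 0.41 from E15 to P9 on the log2(RPKM + 1) scale (limma adjusted p = 0.000763), and its partner chain Col1a2 fell by 1.85 ± 0.33 (limma adjusted p = 0.000803). Col15a1, a basement-membrane-associated collagen, fell by 2.15 ± 0.22, and the fibrillar Col5a2 by 2.01 ± 0.20 (limma adjusted p = 3.28e-05 and 2.62e-05). Col1a1, Col15a1 and Col5a2 each held 1 TGGTGCTA match, and Col1a2 had none in the UTR searched.

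Markers of mesenchyme were also highest at E15 and P3. The summed marker level, which includes Col1a1, was 32.3 to 41.6 RPKM (E15), 15.4 to 15.7 (E18), 16.6 to 18.0 (P0), 25.9 to 54.6 (P3), 21.8 to 23.4 (P6) and 19.5 to 22.7 (P9), with none of the 6 markers at 0. Of 5 tested markers, 4 were called lower at P9 than at E15, where 55.4% of all tested genes were called lower. The P9 sum lay above that of E18. From E18 to P0 the mean marker sum went from 15.6 to 17.3 RPKM, the mean of Col1a1 from 1.70 to 0.268 and that of Col15a1 from 10.4 to 4.04. Over the same step the mean sums of the endothelial, macrophage and erythroid markers went from 64.2 to 24.4, from 77.3 to 19.8 and from 1944 to 109.7 RPKM. The part of any of these cells in the falls of the collagens was not tested. For the postnatal against the embryonic stages, Col1a1 and Col1a2 fell by 1.40 and 1.17 (limma adjusted p = 0.000509 and 0.000403), and both calls were lost without the E15 libraries.

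In the DNA methylation list, 4 of 7 genes fell from E15 to P9 and 3 did not pass, against 3 that fell and 1 that rose after median-ratio rescaling. With 55.4% of all genes called lower, the count of 4 is near the background. The list's median was -0.80 beside -0.54 over all genes. Dnmt1, which copies methylation marks after replication, read 64.7 and 32.9 RPKM (E15), 43.9 and 45.3 (E18), 15.2 and 14.2 (P0), and 9.47 and 11.5 (P9), and fell by 2.05 ± 0.25 on the log2(RPKM + 1) scale (limma adjusted p = 8.66e-05). Its pools at E15 were far apart, yet both exceeded every postnatal library. A postnatal range wholly below the embryonic one was found for 37% of tested genes. Dnmt1 held no TGGTGCT in the UTR searched. Dnmt3b, a methyltransferase that sets new marks, fell by 1.81 ± 0.31 (limma adjusted p = 0.000701), from 7.93 and 2.82 to 0.605 and 0.719 RPKM. Without pool A of E15 its fall was 1.20.

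Dnmt3a, the other de novo methyltransferase, carried 5 seed matches in a 3′ UTR of 6696 bases. An example is shown because this gene is among the best known miR-29 targets.
Dnmt3a, chr12:3911383-3911412, plus strand: gcccttgcccaggggaggtagcTGGTGCTA
It read 21.6 and 17.0 RPKM (E15), 19.9 and 20.9 (E18), 15.9 and 14.7 (P0), 14.1 and 14.6 (P3), 11.1 and 10.01 (P6), and 10.04 and 11.1 (P9), so that all postnatal libraries were below all embryonic ones, as for 37% of tested genes. The fall was 0.80 ± 0.13 on the log2(RPKM + 1) scale (limma adjusted p = 0.00047). After median-ratio rescaling and quantile normalization it shrank to 0.17 and 0.19 and no longer passed (limma adjusted p = 0.190 and 0.136). Tdg, a glycosylase that removes oxidised methylcytosine, fell by 1.08 ± 0.17 (0.54 after median-ratio rescaling), and the methylcytosine oxidases Tet1, Tet2 and Tet3 differed by -0.22, -0.36 and -0.01 with adjusted p above the threshold (0.301, 0.0810 and 0.969).

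Of 25 tested genes of cell survival, cell cycle and signalling, 15 fell from E15 to P9 and 10 did not pass, and the median of -0.57 was close to the -0.54 of all genes. With 55.4% of all genes called lower, the count is near the background, and it was 4 after median-ratio rescaling. Mybl2, a transcription factor of dividing cells, fell from 6.82 and 2.85 to 0.294 and 0.636 RPKM, by 1.92 ± 0.31 on the log2(RPKM + 1) scale (limma adjusted p = 0.000488). Ccnd2, a D-type cyclin, fell by 1.19 ± 0.14, and Sp1, a broadly acting transcription factor, by 1.14 ± 0.17 (limma adjusted p = 6.05e-05 and 0.000339). These kept their direction and call under all 18 alternatives, with falls of 0.54 for Ccnd2 and 0.56 for Sp1 after median-ratio rescaling.

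The falls of Insig1, a sterol-regulated protein of the endoplasmic reticulum (1.10), and of the small GTPase Cdc42 (0.99) did not pass after median-ratio rescaling. The falls of the lipase gene Lpl (1.01) and of Ctnnbip1 (0.96), an inhibitor of beta-catenin, were lost on both rescalings and without pool A of E15 (0.44 and 0.38) or of P9. The call of Lpl was also lost without pool B of P9 and with no filter on low values. Without pool B of E15 the falls were 1.57 and 1.53. Mcl1, an antiapoptotic BCL2 relative, fell by 0.51 ± 0.13 (limma adjusted p = 0.00596). The proapoptotic Bcl2l11, Bbc3 and Bak1 fell by 0.65, 0.69 and 0.67 (limma adjusted p = 0.00527, 0.00717 and 0.0102), while Bmf differed by 0.14 and did not pass (limma adjusted p = 0.373). The falls of Mcl1, Bcl2l11, Bbc3 and Bak1 lay near the median of -0.54 over all genes. After median-ratio rescaling only 4 genes of the list were called lower, Mybl2, Ccnd2 and Sp1 among them.

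**Figure D5:**
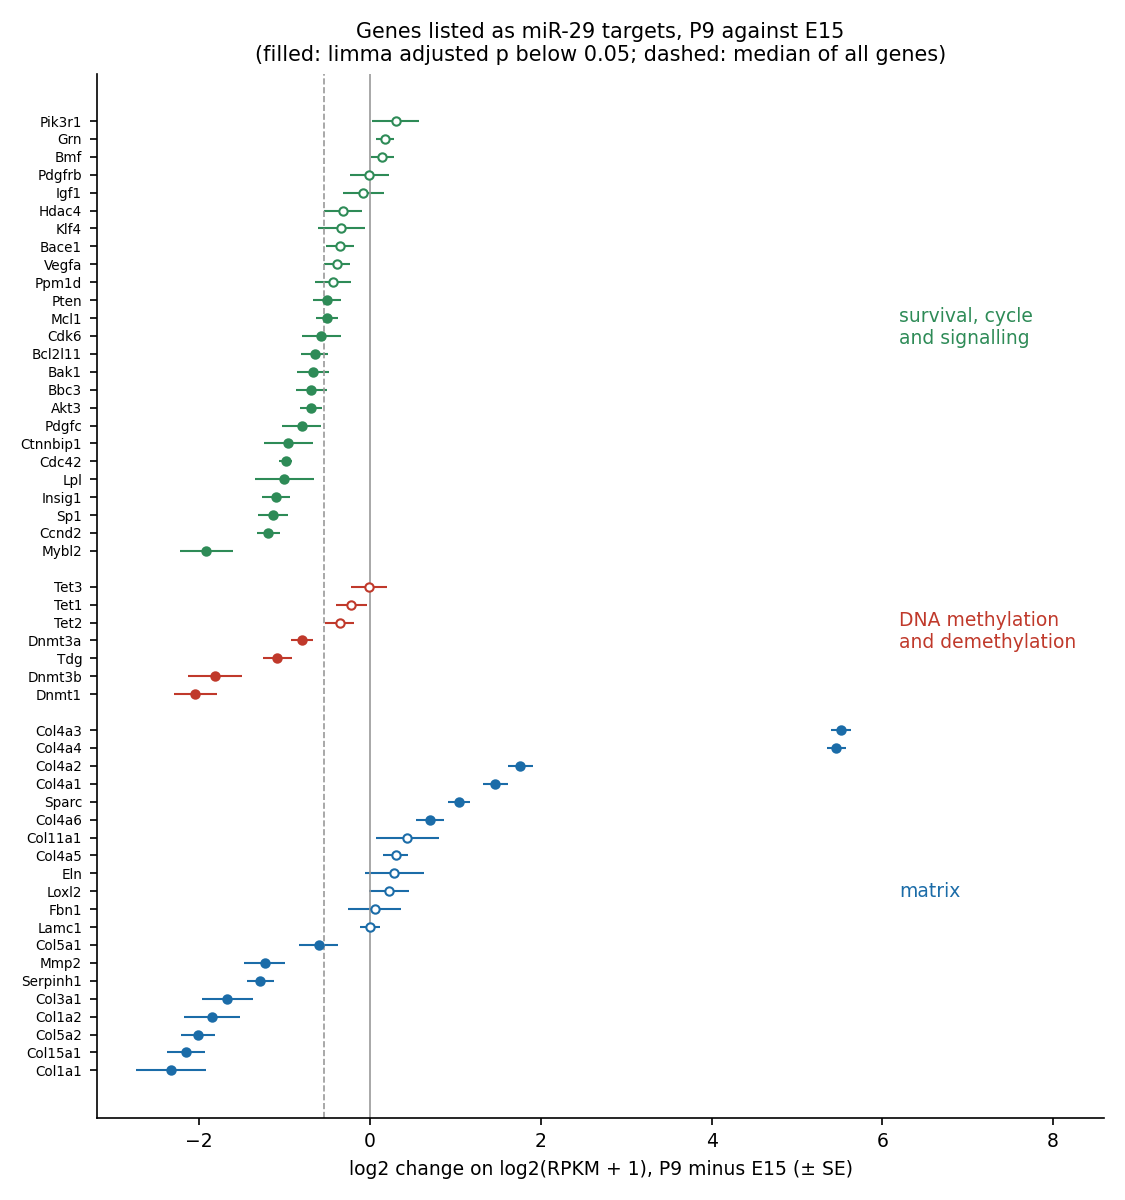
Log2 change from E15 to P9 on the log2(RPKM + 1) scale (x axis, ± SE) of the 52 tested genes listed as miR-29 targets, by list; filled points passed limma at an adjusted p below 0.05, the dashed line is the median of all tested genes (-0.54). Col4a3 and Col4a4 stand far to the right at 5.51 and 5.46, and the members of the other lists lie between -2.05 and 0.30, on both sides of the dashed line.

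Genes reported to regulate the miR-29 loci were read in the same way. The median change of these 12 genes from E15 to P9 was -0.66, beside -0.54 over all genes. Of the 12, 7 fell while 5 failed the test, a share near the 55.4% of all genes called lower. Myc, reported to repress miR-29 transcription in human and mouse lymphoma cells, read 4.39 and 2.96 RPKM at E15, 2.33 and 2.72 at E18 and 0.736 and 0.236 at P9. It fell by 1.66 ± 0.27 on the log2(RPKM + 1) scale (limma adjusted p = 0.000478). Every postnatal library lay at or below 1.45 RPKM and every embryonic one at or above 2.33. Of all tested genes, 37% had every postnatal library below every embryonic one. Ezh2, the methyltransferase of Polycomb repressive complex 2, fell by 1.93 ± 0.32 and Hdac1, a histone deacetylase, by 1.15 ± 0.15 (limma adjusted p = 0.000532 and 0.000103), the latter by 0.60 after median-ratio rescaling.

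Trp53, which encodes the p53 tumour suppressor, fell by 1.61 ± 0.18 (limma adjusted p = 5.11e-05), and by 0.98 after median-ratio rescaling. Nfkb1 and Smad3, of the NF-kappa-B and TGF-beta pathways, fell by 1.05 ± 0.26 and 0.73 ± 0.19 (limma adjusted p = 0.00536 and 0.00717). Neither passed on the rescaled values. Without pool A of E15 the falls were 0.60 and 0.42, and the call of Smad3 was lost without pool A of P9 (limma adjusted p = 0.0525). Relative to the median gene, 4 of the 12 were called lower and 4 higher on both rescalings. The TGF-beta ligands Tgfb1 and Tgfb2 differed by 0.27 and -0.03 and did not pass (limma adjusted p = 0.235 and 0.847).

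Across all tested genes with an annotated 3′ UTR, the medians were read by the number of matches to the family seed. The 9659 genes with no TGGTGCT had a median log2 change of -0.58 from E15 to P9, and 58.6% of them were called lower. The 1849 genes with at least 1 match had a median of -0.55, with 56.0% called lower, and the 406 genes with TGGTGCTA had -0.50, with 52.2% called lower. The 23 genes with 2 or more TGGTGCTA had a median of -0.36, with 43.5% called lower. Genes with a match had longer UTRs (median 2455 against 1028 bases) and slightly lower levels (median 5.76 against 6.48 RPKM). These are descriptions of 1 set of libraries, and the difference between the sets was not tested.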

How the data were processed

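Total RNA of lens pools was made into mRNA (TruSeq RNA v2) and small-RNA (TruSeq Small RNA) libraries, per the labels' protocols. The tools were Bowtie 0.12.8 with SAMtools 0.1.18 on mouse build GRCm38/mm10, as listed per the submitters' processing notes. The authors deposited 1 table per library. The miRNA values are a signal that the authors scaled by steps the sources used here leave unnamed. The deposited mRNA values behave as RPKM. Depth behind a miRNA value is unknown, so no interval for it is given.

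Features that reached a value of 1 in 2 or more libraries entered the test on log2(value + 1) with limma 3.58.1 in R 4.3.3, with stage as a factor over 12 libraries (6 residual degrees of freedom) and an intensity trend, Benjamini-Hochberg adjusted over all features and called below 0.05. The fit was tested on simulated data. Ratios were tested in Python 3.11.15. Seeds and hairpins come from RefSeq (GRCm38.p6), and 3′ UTRs from GENCODE on GRCm38. The members and lists were chosen with earlier results of these data known. Named are all members and passengers, the 5 most alike miRNAs of each, all collagen IV chains and up to 6 called genes per list by size of change (3 for postnatal against embryonic). Sparc, Mcl1, Bcl2l11, Bbc3, Bak1, Bmf, the Tet and Tgfb genes, further matrix genes and the locus transcript were added after their values were seen. Pools shared between the assays are not stated.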

Additional observations from a re-analysis of the deposited data

How the results depend on the processing

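The 3 members kept their direction and call in all 19 alternatives, both from E15 to P9 and from embryonic to postnatal stages. Leaving out 1 library at a time, the change to P9 was 1.11 to 1.39 for miR-29a-3p, 2.91 to 3.85 for miR-29b-3p and 1.18 to 1.41 for miR-29c-3p, and with a pseudocount of 0.1 it was 4.07 for miR-29b-3p. In the fit with the pool letter as a replicate block, the changes were the same with limma adjusted p of 0.000828, 3.97e-05 and 0.000219, and that block changed no call. No letter effect common to all stages was seen. Deviations of same-letter pools correlated with a median r of 0.00529 (-0.234 to 0.0762) over 15 pairs of stages in the small-RNA libraries. In the mRNA libraries the median r was -0.00771 (-0.247 to 0.206). A pairing of only some stages would not show in these medians. The count-based test was not run, because whole reads could not be recovered from the miRNA values.

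Median-ratio rescaling and quantile normalization took away most of the excess of falls. From E15 to P9, the miRNAs called higher and lower became 193 and 208, or 196 and 190; for postnatal against embryonic stages, 196 and 224, or 206 and 198. Matrix genes called higher at P9 became 10 and 11 on these scales in turn. DNA methylation genes called higher became 1 and 1 in either comparison, and those lower postnatally 3 and 3. Survival, cycle and signalling genes called higher became 3 and 3 in either comparison, and those lower became 4 and 6 at P9 and 5 and 7 postnatally. Regulators called higher became 4 and 4 at P9 and 4 and 3 postnatally, and those lower 4 and 4, and 5 and 5.

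Without both E15 libraries, the postnatally higher genes were 0 in the survival list and 1 among regulators. Leaving out 1 library at a time gave 0 to 1 survival genes higher and 8 (without pool A of P9) to 18 lower at P9, and 0 to 1 regulators higher postnatally. Without both P3 libraries the log2 ratio differences became 1.97 for miR-29b-3p to miR-29a-3p and 2.09 to miR-29c-3p. Leaving out 1 library at a time they ranged from 0.925 to 1.79 and from 1.18 to 2.02, and the cause was not tested. Of 80 results on single features, 55 kept direction and call under every alternative run, 18 changed on a rescaling and 10 when 1 library was left out, and no called direction reversed. With 2 pools a stage and unknown small-RNA depth, calls between consecutive stages, such as the step from E18 to P0, could rest on single libraries.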
